A study of Mus musculus with 8 samples.

Results

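The serum miRNAs of non-irradiated mice were read from 4 of the 8 arrays of the series, which are all the arrays labelled 0 Gy, with each of the 1881 mouse miRNAs on the array. The donors were male C57BL/6NJcl mice, 8 weeks old, that received no X-rays, and the other 4 arrays hold sera of mice given 7 Gy, which were not described here. Blood was collected in serum separator tubes, RNA was taken from 200 µl of serum with Isogen II, and 30 ng of it was labelled with the dye Cy3 and hybridised to a 1-colour Agilent mouse miRNA array. The sera are from separate mice by the number of mice the study gives for the arrays, and the sources used here do not name the time at which they were drawn. Every SD below is the spread between the 4 sera, and every SE is limma's, which also draws on the spread of the other ratios tested. They are called sera 1 to 4 after their replicate numbers.

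MiRNAs are short RNAs cut from hairpin precursors. They are loaded into Argonaute proteins and pair with target mRNAs mainly through the seed, the stretch near the 5′ end that is shown here as bases 2 to 8. Serum contains no intact blood cells once the clot is removed, and the miRNAs left in it travel inside extracellular vesicles or bound to Argonaute and other proteins. They are known to come largely from red cells, platelets and leukocytes, with smaller contributions from liver, muscle and other organs. MiRBase numbers miRNAs roughly in the order of their discovery, so that a high number marks a late entry, often one known only from deep sequencing.

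The total miRNA signal of the arrays differed 3.84 times, from 435275 in serum 1 to 113386 in serum 4. Labelling spike-ins, control RNAs added before labelling, had log10 signals of 3.68, 3.45, 2.73 and 3.37 in sera 1 to 4, and hybridization spike-ins had 4.34 to 4.51. All 4 arrays lay on 1 slide, with sera 1 and 2 in slide row 1 and sera 3 and 4 in slide row 2, so that a slide row and a pair of sera cannot be told apart. Shares of the total signal of each array, in percent, were used for the make-up of the serum. A share of signal is not a share of molecules, since probes for different miRNAs respond differently. Shares within an array also depend on each other, so that the share of a miRNA rises where that of a bright one falls.

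The mature sequences of miRNAs that carried most of the signal, or that varied most between the sera, are printed first because their base composition and shared seeds are used below. They are from RefSeq (GRCm38.p6), 5′ to 3′, with the seed in capitals, and RefSeq held sequences for 1608 of the 1881 miRNAs. MiR-486a-5p, miR-3960 and miR-709 are named only. The first set holds the miRNAs made in red cells and their seed relatives, the second the abundant miRNAs found in many tissues, the third the let-7 family, and the fourth bright late entries, numbered from 1000 on.
miR-451a: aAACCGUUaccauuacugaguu
miR-144-3p: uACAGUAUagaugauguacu
miR-16-5p: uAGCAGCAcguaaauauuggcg
miR-15a-5p: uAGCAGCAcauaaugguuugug
miR-15b-5p: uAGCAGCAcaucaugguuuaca
miR-22-3p: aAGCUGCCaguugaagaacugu
miR-25-3p: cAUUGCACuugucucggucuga
miR-92a-3p: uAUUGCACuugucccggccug
miR-29a-3p: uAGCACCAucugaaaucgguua
miR-29c-3p: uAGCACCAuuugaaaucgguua
miR-30a-5p: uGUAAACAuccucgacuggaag
miR-30e-5p: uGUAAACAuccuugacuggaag
miR-140-3p: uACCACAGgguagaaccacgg
miR-21a-5p: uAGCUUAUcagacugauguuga
let-7a-5p: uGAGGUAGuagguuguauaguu
let-7b-5p: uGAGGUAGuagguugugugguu
let-7c-5p: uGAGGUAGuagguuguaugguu
let-7g-5p: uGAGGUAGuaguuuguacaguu
let-7i-5p: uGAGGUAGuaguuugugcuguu
miR-3963: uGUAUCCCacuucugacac
miR-5126: gCGGGCGGggccgggggcgggg
miR-7047-5p: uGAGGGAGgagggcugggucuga
miR-8110: aAGCGUGGauugggggggggg
miR-5100: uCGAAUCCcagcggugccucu

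MiR-451a (chr11:78073186-78073207, plus strand) and miR-144-3p (chr11:78073047-78073066, plus strand) lie next to each other in one cluster. MiR-22-3p (chr11:75463772-75463793, plus strand) lies in its host RNA Mir22hg. MiR-25-3p (chr5:138165332-138165353, minus strand) shares the gene Mcm7 with miR-93-5p and miR-106b-5p. MiR-16-5p has identical copies in Smc4 (chr3:69009918-69009939, plus strand) and Dleu2 (chr14:61631936-61631957, minus strand), each beside a copy of miR-15. MiR-140-3p (chr8:107551288-107551308, plus strand) lies in Wwp2 and miR-21a-5p (chr11:86584120-86584141, minus strand) in Vmp1. Counted from 1 at the 5′ end, with the base of the first miRNA named first, miR-29a-3p differs from miR-29c-3p by C10U and miR-30a-5p from miR-30e-5p by C13U. Let-7a-5p differs from let-7c-5p by A19G, from let-7b-5p by A17G and A19G, and from let-7g-5p by G12U and U18C, so that the probes of this family target sequences that are nearly alike and may share signal.

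Among the cell type lists, the erythroid list gave the largest part of the signal in each serum, and miR-451a and miR-486a-5p changed places between the sera. MiR-451a, an erythroid miRNA cut by Argonaute 2 instead of Dicer, was highest by its mean share (19.5% ± 18.8, SD, n = 4). It held 39.7, 31.4, 1.81 and 5.29% of the signal in sera 1, 2, 3 and 4, and ranked 1, 1, 14 and 4. MiR-486a-5p, which is abundant in red cells and muscle, followed with 10.8% ± 8.30 (SD, n = 4). Its shares were 3.83, 6.44, 22.6 and 10.2% in sera 1 to 4, so that it was below miR-451a in sera 1 and 2 and above it in sera 3 and 4. The ratio of miR-486a-5p to miR-451a within an array was −3.37, −2.29, 3.65 and 0.95 on the log2 scale, and the pairs of sera on the slide rows did not overlap. The spread of both miRNAs was close to their mean, and their order was not settled by these data.

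Behind them stood miR-3963, a high-numbered miRNA, with 1.69, 3.38, 7.97 and 12.1% in sera 1 to 4 (mean 6.28% ± 4.70, SD, n = 4). MiR-22-3p, found in blood cells and most tissues, held 3.04, 3.00, 9.14 and 7.49% (mean 5.67% ± 3.13, SD, n = 4). By share, both were higher in sera 3 and 4 than in sera 1 and 2. Without scaling, the mean log2 signal of sera 3 and 4 minus that of sera 1 and 2 was 0.60 for miR-3963 and 0.01 for miR-22-3p. MiR-29a-3p, known for targeting collagen mRNAs, held 2.73, 2.53, 1.95 and 3.25% (mean 2.62% ± 0.538, SD, n = 4), and its sera overlapped. MiR-25-3p, of the Mcm7 cluster, held 2.65, 2.74, 1.61 and 1.44% (mean 2.11% ± 0.681, SD, n = 4). MiR-16-5p, made together with miR-15 and known as a brake on the cell cycle, held 4.06, 3.50, 0.0414 and 0.0648%, so that the ranks of miR-16-5p were 2 and 3 in sera 1 and 2 and 147 and 135 in sera 3 and 4.

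The other 13 of the 20 brightest miRNAs had mean shares of 1.23 to 1.99%. Of these, miR-140-3p, the cartilage miRNA that also circulates in blood, held 1.32, 2.03, 1.84 and 0.939%. MiR-30a-5p held 1.07, 0.996, 1.87 and 2.10%, miR-92a-3p of the miR-17-92 cluster 1.72, 1.85, 1.20 and 1.18%, and miR-21a-5p, a miRNA of myeloid and many other cells, 2.46, 1.38, 0.215 and 0.894%. MiR-709 (0.837, 1.31, 1.24 and 1.53%) and miR-3473b (1.31, 1.60, 1.75 and 1.97%) had the smallest SDs of these 13. Late entries of miRBase, numbered from 1000 on, made up 9 of the 20 brightest miRNAs, namely miR-3963, miR-5126, miR-7047-5p, miR-3473b, miR-8110, miR-5100, miR-3960, miR-1224-5p and miR-6366. This was less than their part of the array, where 1062 of the 1881 miRNAs were late entries, and 241 of the 445 detected in all sera.

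**Figure D1:**
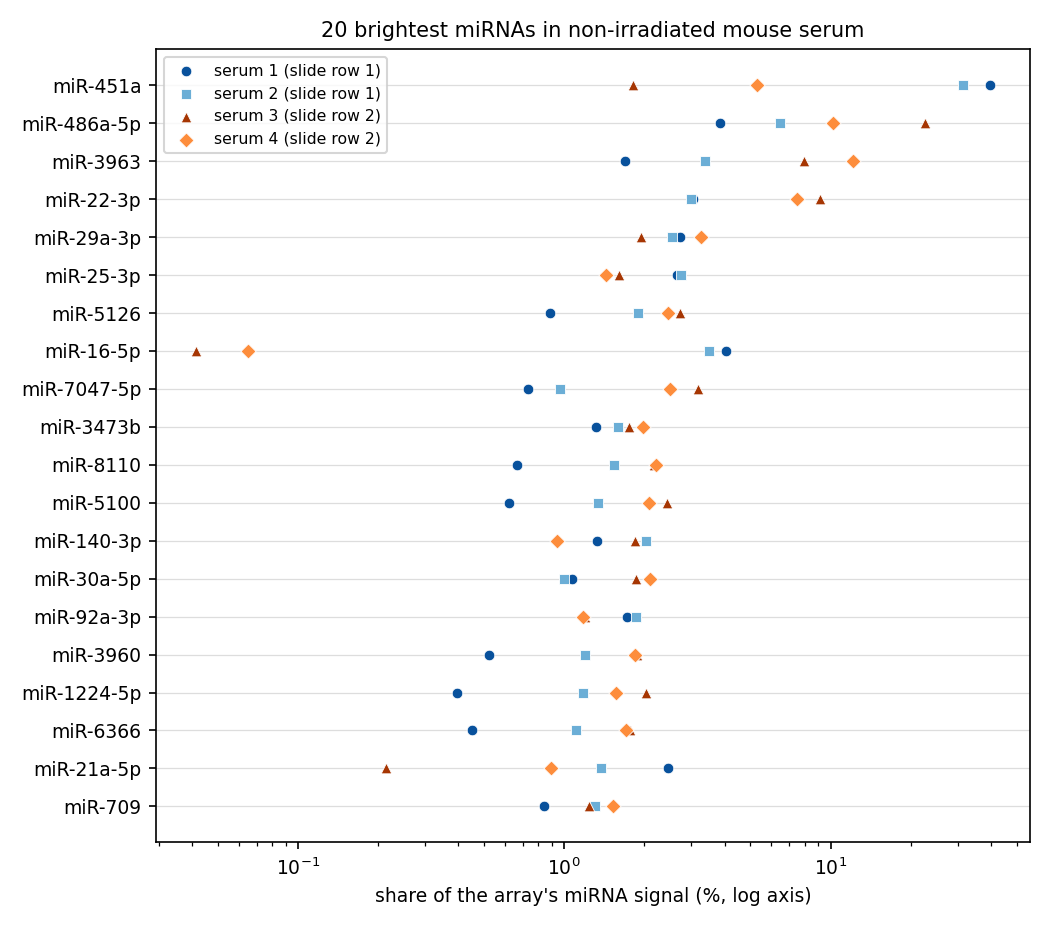
Share of the array's miRNA signal, in percent on a log axis, of the 20 miRNAs with the highest mean share, with 1 point per serum. The points of miR-16-5p lie apart in pairs (4.06 and 3.50% against 0.0414 and 0.0648%), whereas those of miR-29a-3p lie between 1.95 and 3.25%.

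The order of the bright miRNAs was only partly shared. MiR-486a-5p, miR-3963, miR-22-3p and miR-29a-3p were among the 10 brightest in all 4 sera, out of 18 miRNAs that were among the 10 brightest in any serum. Among the 20 brightest, 10 of 30 were shared by all sera. Of the 19 pairs of neighbours in the order by mean share, 1 pair, miR-22-3p above miR-29a-3p, stood in the same order in all 4 sera, with a mean log2 ratio of 0.96 ± 0.97 (SD, n = 4).

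The signal was concentrated in few miRNAs. The 10 brightest of each serum held 63.3, 58.8, 56.5 and 49.7% of its signal (mean 57.1% ± 5.70, SD, n = 4), and the 50 brightest held 88.2, 85.6, 86.3 and 82.8%. In serum 1, 4 miRNAs were enough for 50% of the signal, against 6, 7 and 11 in sera 2, 3 and 4, and 59 to 90 miRNAs made up 90%. The brightest single miRNA was miR-451a in sera 1 and 2, miR-486a-5p in serum 3 and miR-3963 in serum 4.

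**Figure D2:**
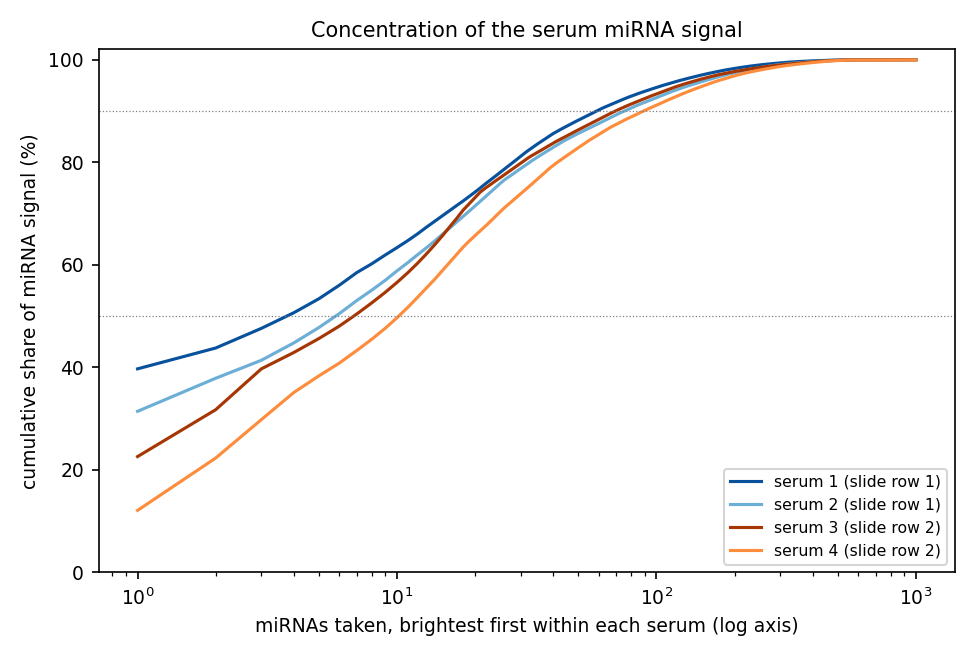
Cumulative share of the miRNA signal (percent) against the number of miRNAs taken, brightest first, on a log axis, with 1 line per serum and dotted lines at 50 and 90%. The line of serum 1 starts highest, at 39.7%, and that of serum 4 lowest, at 12.1%, and the lines approach each other by the 50 brightest miRNAs (82.8 to 88.2%).

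Feature Extraction called 603, 600, 531 and 541 miRNAs detected in sera 1 to 4 (mean 569 ± 38.1, SD, n = 4). There were 445 of the 1881 miRNAs (23.7%) detected in all 4 sera, 702 (37.3%) in at least 1 and 1179 in none. The 445 held at least 98.5% of the signal of every array. The brightest miRNA outside them was miR-1a-3p, a muscle miRNA, with 0.134% in serum 1 and no detection in serum 3. Of 63 miRNAs missing from a single serum, 40 were missing from serum 3, which also had the lowest labelling spike-in signal. Whether that signal had a part in the missing calls was not tested.

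Of the 1062 late entries of miRBase, 241 (22.7%) were detected in all sera, against 204 of 819 (24.9%) with a lower number. The late entries held 12.3, 23.7, 42.0 and 45.9% of the signal in sera 1 to 4, so that sera 1 and 2 were both below sera 3 and 4.

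The tissue of origin was read from lists of miRNAs known for a cell type, given here as summed shares, and together 72 such miRNAs held 57.2, 49.5, 29.0 and 23.2% of the signal in sera 1 to 4. In serum, fewer cells that release a miRNA and less RNA released per cell cannot be told apart, and several of these miRNAs are made by more than one tissue. The erythroid list led with 48.4, 42.0, 24.5 and 15.6% (mean 32.6% ± 15.2, SD, n = 4), and 5 of its 6 miRNAs on the array were detected in all sera. In sera 3 and 4 most of it was miR-486a-5p (22.6 and 10.2% of the signal), which is abundant in muscle too. MiR-15a-5p held 0.734, 0.556, 0.0718 and 0.0373%, and miR-144-3p, cut from the same primary transcript as miR-451a, held 0.0615, 0.0824, 0.00742 and 0.0525%. The log2 ratio of miR-451a to miR-23a-3p, a ratio used as a sign of red cell lysis in serum, was 5.08, 5.93, 3.13 and 3.32, and it was higher in both sera 1 and 2 than in both sera 3 and 4. The part of lysis in these shares was not tested.

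Leukocyte miRNAs held less, and in sera 3 and 4 the muscle list was above them. The myeloid and shared leukocyte list held 3.43, 2.40, 0.370 and 1.38% (5 of 6 detected in all sera), of which miR-21a-5p gave 65.2%. MiR-223-3p, the classical granulocyte miRNA, held 0.649, 0.184, 0.0125 and 0.0447%, while its other arm miR-223-5p was detected in no serum. MiR-142a-3p, present in all blood cells, held 0.216, 0.714, 0.110 and 0.299%. The lymphocyte list was smaller, with 0.446% ± 0.178 (SD, n = 4) and 4 of 5 detected in all sera, led by miR-342-3p (0.221, 0.256, 0.105 and 0.365%). MiR-150-5p, abundant in mature B and T cells, held 0.0793, 0.127, 0.00324 and 0.0584%. Serum 3 was the lowest for each of these lists. The platelet and endothelial list held 0.512, 0.671, 0.609 and 0.737%, led by miR-222-3p, while miR-126a-3p, the endothelial miRNA also found in platelets, held 0.222, 0.204, 0.00922 and 0.0603%.

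Among solid tissues, the muscle list held 1.79, 0.485, 1.05 and 3.20% (mean 1.63% ± 1.17, SD, n = 4). MiR-133b-3p (1.06, 0.259, 0.705 and 2.01%) and miR-133a-3p (0.562, 0.129, 0.338 and 1.06%), both of skeletal and heart muscle, gave most of it and had the same order of sera. Other members had another order, and 3 of 7 were detected in all sera. MiR-1a-3p held 0.134, 0.0891 and 0.0362% in sera 1, 2 and 4, and it was not detected in serum 3. MiR-499-5p and miR-206-3p were not detected in serum 3 either. MiR-208a-3p, made from a heart myosin gene, held 0.00251, 0.00192, 0.00915 and 0.0667%, and miR-208b-3p was detected in no serum. The liver list rested on miR-122-5p, the most abundant miRNA of hepatocytes, with 0.105, 0.356, 0.00344 and 0.0903%, whereas miR-122-3p was detected in no serum. The intestine and kidney list held 0.315, 0.190, 0.0125 and 0.0614%, led by miR-192-5p (0.191, 0.134, 0.00171 and 0.0224%). Liver, intestine and kidney miRNAs were lowest in serum 3, and the muscle list was lowest in serum 2.

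The mesenchymal and cartilage list held 1.72, 2.43, 1.88 and 1.04%, of which miR-140-3p gave 86.8%, and miR-143-3p and miR-145a-5p of smooth muscle held at most 0.0357 and 0.0285%. The epithelial list held 0.231, 0.273, 0.102 and 0.153%. Its brightest member miR-205-5p, of the skin and other stratified epithelia, held 0.0720, 0.0993, 0.0804 and 0.114%, and 3 of its 7 miRNAs were detected in all sera. The pancreatic islet list rested on miR-375-3p (0.0759, 0.0926, 0.0849 and 0.123%), which is also made in the gut. Of the acinar list miR-148a-3p was detected, which the liver makes too, while the pancreas miRNAs miR-216a-5p, miR-216b-5p and miR-217-5p were detected in no serum.

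Of the brain list, miR-128-3p (0.205, 0.0998, 0.0379 and 0.0520%) and miR-132-3p were detected in all sera. The list held 0.113% ± 0.0816 (SD, n = 4), of which miR-128-3p gave 87.6%, and 5 of its 9 members, miR-9-5p, miR-9-3p, miR-124-3p, miR-129-5p and miR-137-3p, were detected in no serum. Of 3 miRNAs of ciliated cells and testis, miR-34c-5p and miR-449a-5p were detected in no serum and miR-34b-5p in serum 1 alone. All 6 embryonic stem cell miRNAs, miR-291a-3p, miR-294-3p, miR-295-3p, miR-302a-3p, miR-302b-3p and miR-302d-3p, were detected in no serum. Over the whole array 23.7% of miRNAs were detected in all sera and 62.7% in none.

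**Figure D3:**
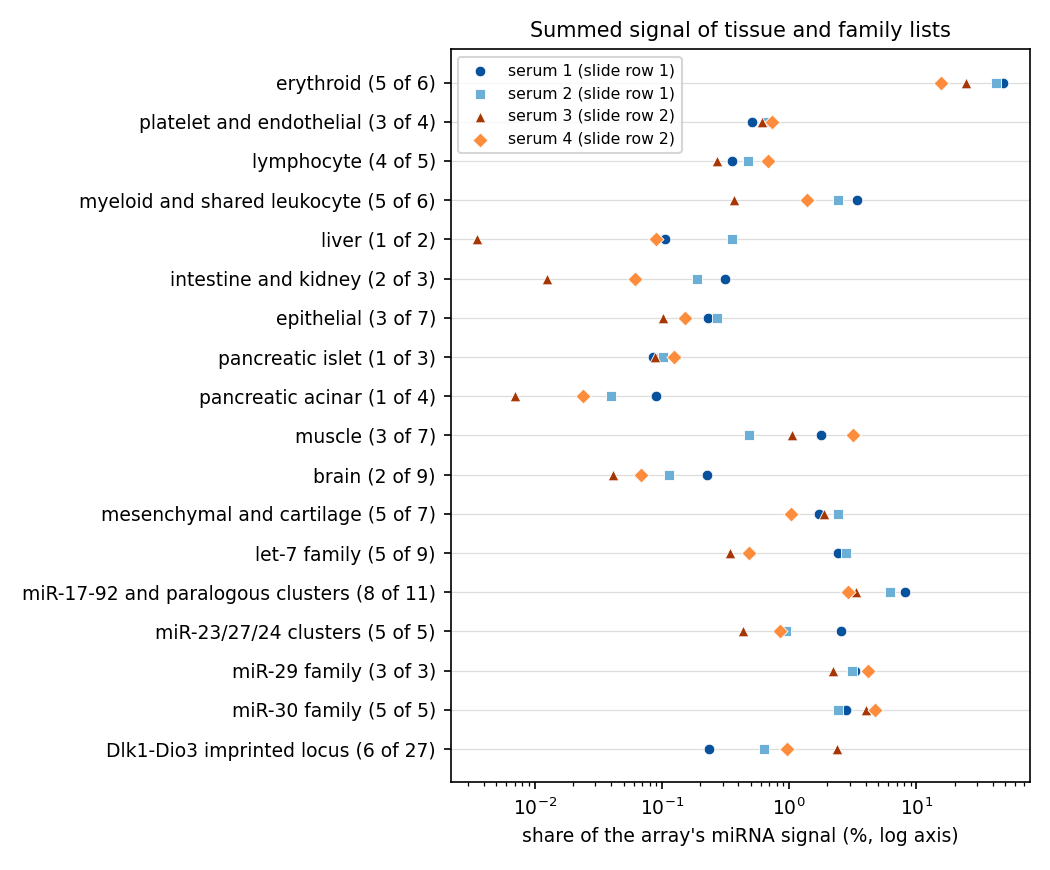
Summed share of signal, in percent on a log axis, of the cell type and family lists with at least 1 miRNA detected in all sera, with 1 point per serum and, in brackets, how many of the list's miRNAs on the array were detected in all sera. The erythroid list lies between 15.6 and 48.4%, more than any other list in every serum, and the liver list spans the widest range, 0.00351 to 0.356%.

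MiRNA families that share a seed or a cluster were summed in the same way. The miR-17-92 cluster and its relatives, known as drivers of blood cell growth, held 8.12, 6.26, 3.36 and 2.93%, with miR-25-3p and miR-92a-3p as the brightest of 11 members on the array. The 2 share the seed AUUGCAC, and the miRNAs of this seed held 4.37, 4.59, 2.81 and 2.62%. MiRNAs of the seed AGCAGCA, miR-15 and miR-16, held 6.42, 4.68, 0.230 and 0.419% and were thus lower in both sera 3 and 4, as miR-16-5p alone was. The miR-29 family held 3.28, 3.10, 2.22 and 4.14%, with miR-29a-3p far above miR-29c-3p (0.478, 0.493, 0.272 and 0.799%). The miR-30 family held 2.79, 2.44, 4.06 and 4.71%. The miR-29 family overlapped between the pairs of sera, and the summed share of the miR-30 family was higher in both sera 3 and 4.

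The let-7 family, which restrains growth genes and is made in nearly all tissues, held 2.41, 2.80, 0.340 and 0.482%. By mean share let-7b-5p was its brightest member with 0.618, 0.829, 0.258 and 0.331%, followed by let-7i-5p with 0.884, 0.897, 0.0269 and 0.0454%, which was the brighter of both in sera 1 and 2. Let-7g-5p held 0.307, 0.297, 0.00255 and 0.00714%. On signals scaled to equal 90th percentiles, all 5 members detected in all sera were lower in both sera 3 and 4 than in both sera 1 and 2, where 13.9% of all miRNAs detected in all sera were, and let-7b-5p, at A17G and A19G from let-7a-5p, differed least. Of 27 miRNAs of the imprinted Dlk1-Dio3 locus on the array, 6 (22.2%) were detected in all sera and 13 in none, where the whole array had 23.7% and 62.7%. MiR-494-3p (0.173, 0.571, 2.35 and 0.919%) gave 95.0% of the signal of this list.

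The spread between the sera was far larger than the error within an array. With the 90th percentiles of the arrays made equal, which gives what is called the scaled signal here, the median SD of the log2 signal over 4 sera was 0.75 for the 445 miRNAs (10th to 90th percentile, 0.42 to 1.59), and 135 of them had an SD above 1. The error that Feature Extraction gives for a miRNA within an array had a median of 0.12 on the same scale, and 442 of 445 miRNAs had an SD above their own. Among 116 miRNAs with a mean scaled signal of at least 100, the median SD was 0.81 and 47 had an SD above 1.

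The most variable of these 116 miRNAs were well known tissue and blood cell miRNAs. MiR-16-5p had scaled signals of 6893, 4356, 63.2 and 68.3 in sera 1 to 4 (SD of log2 3.69), and let-7g-5p 520, 369, 3.89 and 7.52 (SD 3.69). MiR-192-5p of the intestine and kidney followed with 324, 167, 2.61 and 23.6 (SD 3.13), then miR-20a-5p, let-7i-5p, miR-122-5p, miR-223-3p, let-7a-5p, miR-140-5p and miR-15a-5p with SDs of 2.87 to 2.31. All 10, which were picked for their SD over these same sera, were lower in both sera 3 and 4 than in both sera 1 and 2. Of all 445 miRNAs 13.9% were, and of the 116 it was 30 of 64 numbered under 1000 and 0 of 52 late entries. The steadiest was miR-205-5p, with 122, 123, 123 and 120 (SD 0.017), below its own error within an array of 0.10. MiR-375-3p followed with 129, 115, 130 and 130 (SD 0.085), then miR-709 with 1420, 1629, 1900 and 1610 (SD 0.17). MiR-3470a, miR-3473b, miR-130b-3p, miR-29a-3p, miR-296-5p, miR-5113 and miR-6978-5p had SDs of 0.18 to 0.36. An SD depends on the scale, and on these arrays the steadiest miRNAs are those that followed the 90th percentile.

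Sera of the same slide row were more alike than sera of different rows. Across the 445 miRNAs, which share the arrays and their scaling, the log2 signals of sera 1 and 2 had a Pearson r of 0.965 and those of sera 3 and 4 an r of 0.929, whereas the 4 pairs from different rows had an r of 0.761 to 0.895. On the scaled signals 266 of 445 miRNAs (59.8%) were higher in both sera 3 and 4 than in both sera 1 and 2, and 62 (13.9%) were lower. These counts follow the scale: the median of all 445 differences, sera 3 and 4 minus sera 1 and 2, was 0.84 on the log2 scale after percentile scaling and −0.40 without scaling. Read against this shift, the erythroid (median −3.71), myeloid and shared leukocyte (−2.24), liver (−3.65), intestine and kidney (−2.90), acinar (−2.43), brain (−1.62), miR-17-92 (−2.81), miR-23/27/24 (−1.51) and let-7 (−4.34) lists were lower in sera 3 and 4 under all scalings run. The epithelial (−1.87) and mesenchymal (−0.80) lists were lower too, except that both were at 0 with a floor of 100. Within the erythroid list miR-486a-5p went the other way, at 1.42 after percentile scaling and 0.17 without scaling. The platelet and endothelial list had a median of −2.02, while its summed share overlapped between the pairs of sera. Its brightest member miR-222-3p was higher in sera 3 and 4 by share, but after percentile scaling its difference of 0.90 was close to the median of all 445 (0.84). The lymphocyte, islet, muscle, miR-29, miR-30 and Dlk1-Dio3 lists had medians of −0.26 to 0.99 that changed sign with the scaling or an array left out.

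The difference between the slide rows went with GC content among early entries of miRBase. Among 381 of the 445 miRNAs with a sequence, the median difference between the rows was −1.61 on the log2 scale for a GC content under 40%, −0.12 for 40 to 50%, 0.85 for 50 to 60% and 1.00 for 60% or more. By their means 15 of 20, 35 of 64, 30 of 138 and 8 of 159 miRNAs of these classes were lower in sera 3 and 4. Early entries alone had medians of −2.04, −0.60, 0.49 and 0.98 in the same classes. Late entries had 0.71, 1.17, 1.09 and 1.01, the first of these over 3 miRNAs. The AU-rich sequences of miR-451a, let-7g-5p and let-7a-5p, each with a GC content of 36.4%, had differences of −3.71, −6.34 and −4.34, but at the same GC content miR-29c-3p had −0.25 and miR-208a-3p 3.30. Over miRNAs with a number under 1000 the Spearman correlation of the difference with GC content was 0.471 (n = 174), and over the late entries it was −0.047 (n = 207). The points share the 4 arrays, so that no p-value is given. GC content alone did not order the miRNAs, since miR-16-5p, miR-494-3p and miR-22-3p all have 45.5% and differed by −6.38, 2.03 and 1.26. Of late entries among the 116 bright miRNAs, 0 of 52 were lower and 44 higher in both sera 3 and 4, and of those with a lower number 30 of 64 were lower and 16 higher. Over all 445 miRNAs 13.9% were lower and 59.8% higher. These directions follow the scale too: the median difference of late entries was 1.01 after percentile scaling and −0.23 without scaling. For lower numbers it was 0.17 and −1.08. MiRNAs with a GC content under 40% held 45.2, 35.5, 2.65 and 7.87% of the signal in sera 1 to 4. Slide row 2 also held the lower total signals, and the part of the amount of RNA, of labelling, of the slide row and of the animals was not tested.

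**Figure D4:**
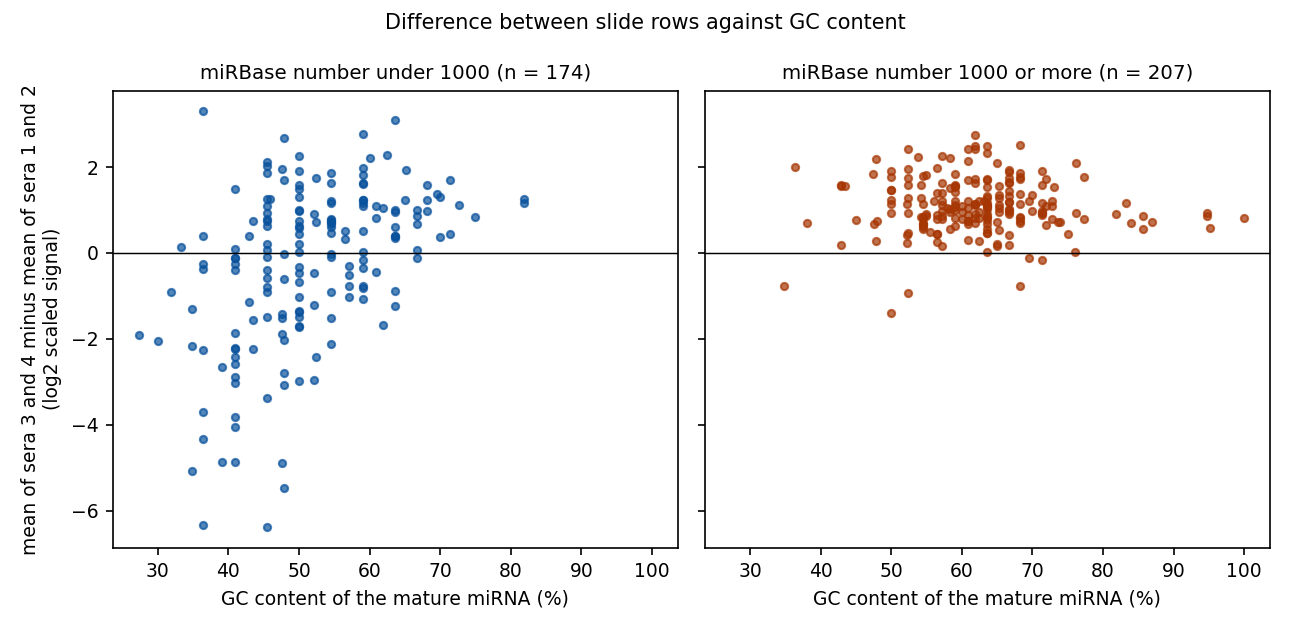
Mean log2 scaled signal of sera 3 and 4 minus that of sera 1 and 2 against the GC content (percent) of the mature miRNA, with 1 point per miRNA detected in all sera, for miRBase numbers under 1000 (left, n = 174) and of 1000 or more (right, n = 207). The points on the left spread downwards at low GC content (Spearman rho 0.471), and those on the right lie mostly above 0 at every GC content (rho −0.047). The place of 0 follows the percentile scaling.

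GC content and runs of G also went with detection itself. MiRNAs detected in all sera had a median GC content of 58.3% (n = 381), against 50% for miRNAs detected in none (n = 1005). A run GGGG, as in miR-5126 and miR-8110 above and searched on the strand of the mature miRNA, was present in 23.1% of the former and 7.36% of the latter, and in 182 of all 1608 sequences. Of miRNAs with such a run 48.4% were detected in all sera, against 20.5% of those without it, and both classes of miRBase number had this gap (48.5 against 18.0% from 1000 on, 47.9 against 23.8% below). These miRNAs held 5.03, 10.9, 16.7 and 16.5% of the signal in sera 1 to 4. The match is of letters only.

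Arm use was compared within arrays, as the log2 ratio of the 5p to the 3p signal of a hairpin, which no scaling between arrays changes. Of 723 hairpins with both arms on the array, 41 had both arms detected in all sera, 114 had the 5p arm in all and the 3p arm in none, 70 had the 3p arm in all and the 5p arm in none, and 309 had neither in any. Of the 41, 28 (68.3%) had a ratio that differed from 0 in limma's test with Benjamini-Hochberg adjustment over the 41 at 0.05, with 16 (39%) higher in the 5p arm and 12 (29.3%) higher in the 3p arm. The ratio compares 2 probe sets, so that it shows unequal signal and not unequal molecules. In 30 of 41 hairpins it had the same sign in all 4 sera.

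The 5p arm was far above the 3p arm for miR-486a, with log2 ratios of 8.45, 9.49, 12.64 and 10.65 in sera 1 to 4 (mean 10.31, SE 0.72, limma adjusted p = 0.000108). MiR-7047 was the steadiest, with 9.75, 9.72, 9.45 and 9.75 (mean 9.67, SE 0.27, limma adjusted p = 4.98e-06). MiR-93 of the Mcm7 cluster (mean 7.44), let-7b (6.90), miR-6937 (6.75), miR-30e (6.47), miR-30a (5.83), miR-7045 (5.07), miR-345 (4.86) and miR-3620 (4.59) followed. In miR-93, let-7b, miR-7045 and miR-345 the ratio was higher in both sera 1 and 2 than in both sera 3 and 4. In miR-486a it was lower in both, and in the other hairpins named here the pairs of sera overlapped. Such splits were not counted over the 41 hairpins.

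The 3p arm was higher for miR-23a, with log2 ratios of −10.32, −7.84, −7.05 and −7.22 (mean −8.11, SE 0.62, limma adjusted p = 0.000121). MiR-29c had −5.95, −6.04, −4.79 and −5.81 (mean −5.65, SE 0.34, limma adjusted p = 7.84e-05). MiR-140 had −2.45, −2.58, −7.60 and −4.81 (mean −4.36, SE 0.94, limma adjusted p = 0.0084), and its gap was wider in both sera 3 and 4. MiR-7221 (−4.32), miR-133a (−3.52), miR-7241 (−2.63), miR-142a (−2.54), miR-193b (−2.42), miR-652 (−2.23) and miR-378a (−2.19) followed. Of these, miR-652 was at −0.02 in serum 3 and lost its call without serum 1 or 2, and miR-378a lost its call without serum 2. The gap of miR-378a was also wider in both sera 3 and 4. In miR-23a, miR-29c, miR-7221, miR-142a, miR-193b and miR-652 the gap was narrower in both sera 3 and 4, and in miR-133a and miR-7241 the pairs of sera overlapped. MiR-150 did not pass the test, with 1.38, 1.18, −4.68 and 0.36 (limma adjusted p = 0.74), and its 5p arm, the lymphocyte miRNA, was below the 3p arm in serum 3 alone. MiR-151 likewise had 4.98, 3.50, −1.65 and 1.14 (limma adjusted p = 0.172).

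For several of the brightest miRNAs no partner arm was detected in all sera. MiR-25-3p, miR-1224-5p and miR-21a-5p were detected in all sera and their other arms in none, miR-29a-5p was detected in 1 serum and miR-22-5p in 2. The array has no second arm of miR-451a, and those of miR-16-5p and miR-92a-3p are named after single gene copies and were not paired here. The side of the single detected arm differed with the age of the entry: from miRBase number 1000 on, 81 hairpins had the 5p arm alone and 28 the 3p arm alone (of 406), and below it 33 and 42 (of 317). These counts were not tested.

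**Figure D5:**
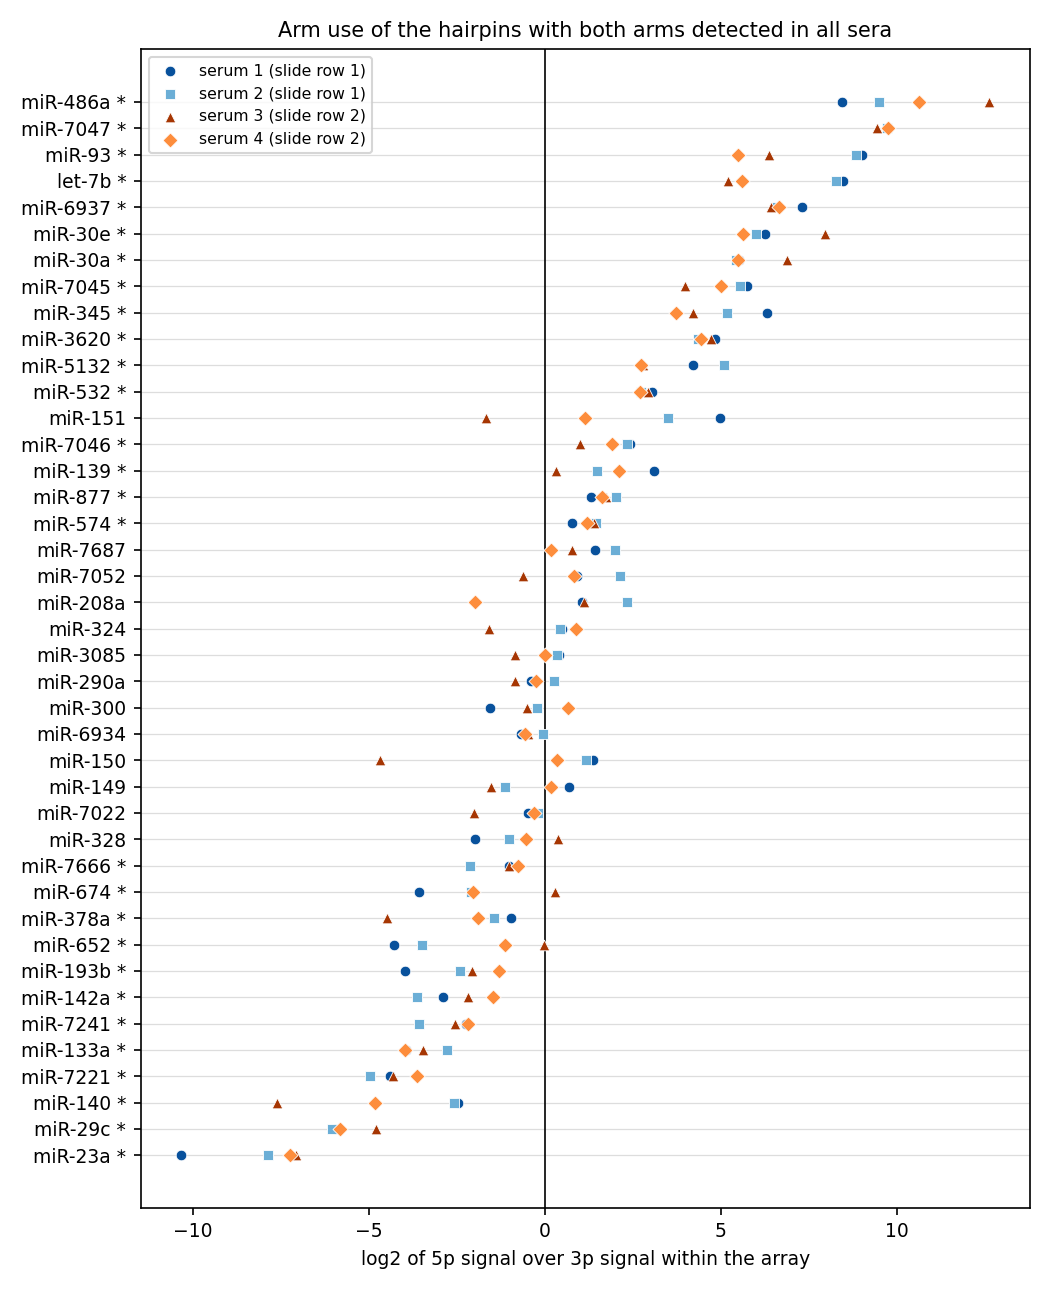
Log2 of the 5p signal over the 3p signal within an array, with 1 point per serum, for the 41 hairpins with both arms detected in all sera, ordered by mean. An asterisk marks the 28 hairpins past limma's test, and points on both sides of the line at 0, as for miR-150 (1.38 to −4.68), mark hairpins whose higher arm differed between sera.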

How the data were processed

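Serum RNA was hybridised by the authors to 1-colour Agilent mouse miRNA arrays, 1 array per serum. The deposited intensity values come from Agilent Feature Extraction (11.5 in the submitters' processing notes), which the authors let subtract the background and sum the probes of each miRNA. They hold 0.1 where a miRNA was not called detected and were not normalized between arrays. Control spots were left out and no spot was saturated.

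The 4 arrays labelled 0 Gy were used, with all 1881 mouse miRNAs. Shares are percent of an array's summed signal. For the spread between sera the 90th percentile of every array was shifted to a common value, the geometric mean over all 8 arrays, as in the percentile shift of the methods, and log2 was taken without a floor. Arm ratios were tested against 0 with limma 3.58.1 (lmFit and eBayes, R 4.3.3) and adjusted by Benjamini-Hochberg over 41 hairpins. On simulated arm ratios the test called 19.3% of log2 ratios of size 1, 61.0% of size 2, 88.6% of size 4 and 0.588% of unchanged hairpins. Each simulation held 1000 hairpins, most of them unchanged, whereas 28 of the 41 tested were called, so that these rates need not hold for the 41. The rest is description with means ± SD. The number of arrays limits the precision. The sera are from separate mice by the number of mice the study gives for the arrays, and the labels name no mouse. Python 3.11.15 with matplotlib 3.10.9 drew the figures.

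The arrays, the lists and the rule for named miRNAs were chosen with earlier results of these data known. Named were the 20 brightest miRNAs, 4 members per list and list members detected in no serum, the 10 most and 10 least variable miRNAs with a mean scaled signal of at least 100, the 10 largest arm ratios past the test in each direction, the hairpins of the 20 brightest, and the brightest members of the leading seeds. MiR-150 and miR-151 were named after their values were seen. Alternatives covered the signal type, background correction, detection filter, scaling, variance prior and leaving out each array.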

Additional observations from a re-analysis of the deposited data

Results flagged for a closer look

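Of 126 values read in each of the 4 sera, 4 had 1 serum set apart from the other 3 by more than Dixon's critical share of the whole range, and chance alone sets apart about 1 in 20. MiR-375-3p was lower in serum 2, with a log2 scaled signal of 6.85 against 7.01 to 7.02, a small gap that was above its median error within an array of 0.10. MiR-29b-3p was lower in serum 3, at 2.57 against 6.49 to 6.96. The log2 ratio of 5p to 3p signal was lower in serum 3 for miR-7047 (9.45 against 9.72 to 9.75) and higher in serum 3 for miR-30a (6.88 against 5.44 to 5.51). Serum 3, which had the lowest labelling spike-in signal, was the serum set apart in 3 of the 4.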

How the results depend on the processing

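The values rest on 4 arrays, and signals near background decide the dim arms and the low shares. Without miR-451a, the 10 brightest held 47.6% of the signal, 11.8 miRNAs made up 50% and 90.8 made up 90%, and the erythroid list held 16.0%. With normexp background correction, whose offset adds signal to every miRNA, the 10 brightest held 40.9%, 25 miRNAs made up 50% and 1020.8 made up 90%, the median SD was 0.35 with 42 miRNAs above 1, and miR-532 and miR-574 turned to the 3p arm (log2 −0.26 and −0.45). Detection in at least 1 serum gave 702 miRNAs and a scaled signal of at least 100 in all sera 67. Scaling to labelling spike-ins gave a median SD of 1.31 and 366 miRNAs above 1, and a floor of 100 gave 0 and 33. Counting each miRNA once gave a mean GC content of 57.4% against 50.6% weighted by signal. The causes of the other moves were not tested. Leaving out each array gave mean shares of 12.8 to 25.5% for miR-451a and 6.83 to 13.1% for miR-486a-5p, the lowest without serum 1 and without serum 3, respectively, with 16 to 19 hairpins higher in the 5p arm and 8 to 13 in the 3p arm (8 without serum 2). MiR-674 lost its call in 7 of the 8 other settings run for arm use, miR-652 in 5, miR-7666 in 4, miR-139 and miR-574 in 3 each, and miR-345 and miR-378a in 1 each. No hairpin had both arms at a scaled signal of at least 100 in all sera, so that this setting was not run. No paired analysis was possible because 1 group was used, with 1 array per replicate number.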
